A study of Mus musculus with 8 samples.

Results

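The genes described here encode the last steps of mitochondrial respiration: complex III, the electron carrier cytochrome c, complex IV (cytochrome c oxidase) and ATP synthase. They were taken by symbol from the array annotation, as every gene whose symbol begins with Uqcr, Cox4 to Cox8 or Atp5, together with Cyc1 and Cycs. Of 19938 genes with a level, 44 met this rule: 9 of complex III, 1 for cytochrome c, 17 of complex IV and 17 of ATP synthase. The data are log2 levels from Affymetrix arrays that cover whole transcripts, with 1 array per heart, for 4 MHC-Plin5 and 4 control animals. All animals were 12-week-old males of the c57/bl background, and the source name gives them as fasted. MHC-Plin5 mice carry extra Plin5, which encodes a lipid droplet coat protein, and the series title places the overexpression in cardiomyocytes. The sources used here do not give the promoter behind the prefix MHC, the number of founder lines or whether controls were littermates.

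Complex III passes electrons from ubiquinol to cytochrome c, complex IV passes them on to oxygen, and both pump protons across the inner mitochondrial membrane. ATP synthase lets the protons flow back and makes ATP, and the heart depends on it for nearly all of its energy. Several small subunits of complex IV come in paralogs. Heart and skeletal muscle make Cox6a2, Cox7a1 and Cox8b, while most other tissues rely on Cox6a1, Cox7a2 and Cox8a.

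Plin5 marked the labels clearly, with control hearts 1 to 4 at 8.92, 8.87, 9.04 and 8.58, and MHC-Plin5 hearts 1 to 4 at 12.17, 12.69, 12.63 and 12.08 (log2 difference 3.54, SE 0.16, limma adjusted p = 6.9e-07). The array median was 5.99 to 6.04 in 6 hearts, 6.24 in control 2 and 6.18 in MHC-Plin5 4. MHC-Plin5 3 held the lowest of the 8 values in 34 of the 44 respiratory genes. MHC-Plin5 4 held the highest in 12 and control 2 in 18. The same counts over all genes were not made. MHC-Plin5 3 also had the lowest array median. Its median difference from the control mean was -0.34 over the 44 and -0.07 over all genes, each the lowest of the 8 hearts. Cardiomyocyte markers, the defining genes of the labelled tissue, were among the brightest. Their mean over 8 markers ran from 13.57 to 13.62 in control hearts and from 13.29 to 13.59 in MHC-Plin5 hearts, with MHC-Plin5 3 lowest. In whole tissue, fewer cells of a type and less RNA per cell cannot be told apart.

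Most of the 44 genes had lower mean levels in MHC-Plin5 hearts, by small amounts, and none was called. The median log2 difference (MHC-Plin5 minus control) was -0.16, against -0.03 over all genes. It was under 0 in 39 of the 44, where this held for 57.5% of all genes and for 51.6% of the 1502 genes with a mean of at least 10, a level that 39 of the 44 reached. By limma with Benjamini-Hochberg adjustment over all 19938 genes, 0 of the 44 passed an adjusted p of 0.05 in either direction (smallest 0.0679), where 3.25% of all genes did (2.08% higher and 1.17% lower). At an unadjusted p under 0.05 there were 11 of the 44, 2 higher and 9 lower, beside 16.6% of all genes and 34.6% of those with a mean of at least 10. The 4 MHC-Plin5 hearts did not overlap the 4 control hearts in 14 genes, 12 lower and 2 higher. Each gene is read from its array row with the highest mean, and the groups overlapped in the other rows of Cox5b, Cox6c and Atp5h. Over all genes 11.2% had no overlap (5% lower, 6.24% higher), and over genes with a mean of at least 10 it was 28.6%. Without overlap were 31.8% of the 44, and 35.9% of the 39 with a mean of at least 10. By direction, these 39 had 12 lower and 2 higher. The 1502 genes with such a mean had 216 lower and 213 higher. These shares were not tested against each other. Without MHC-Plin5 3 the median was -0.09, with 35 of 44 under 0. Without MHC-Plin5 4, Uqcrfs1 (log2 difference -0.68, adjusted p = 0.0319) and Cox7a1 (-0.46, adjusted p = 0.0358) were called.

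**Figure D1:**
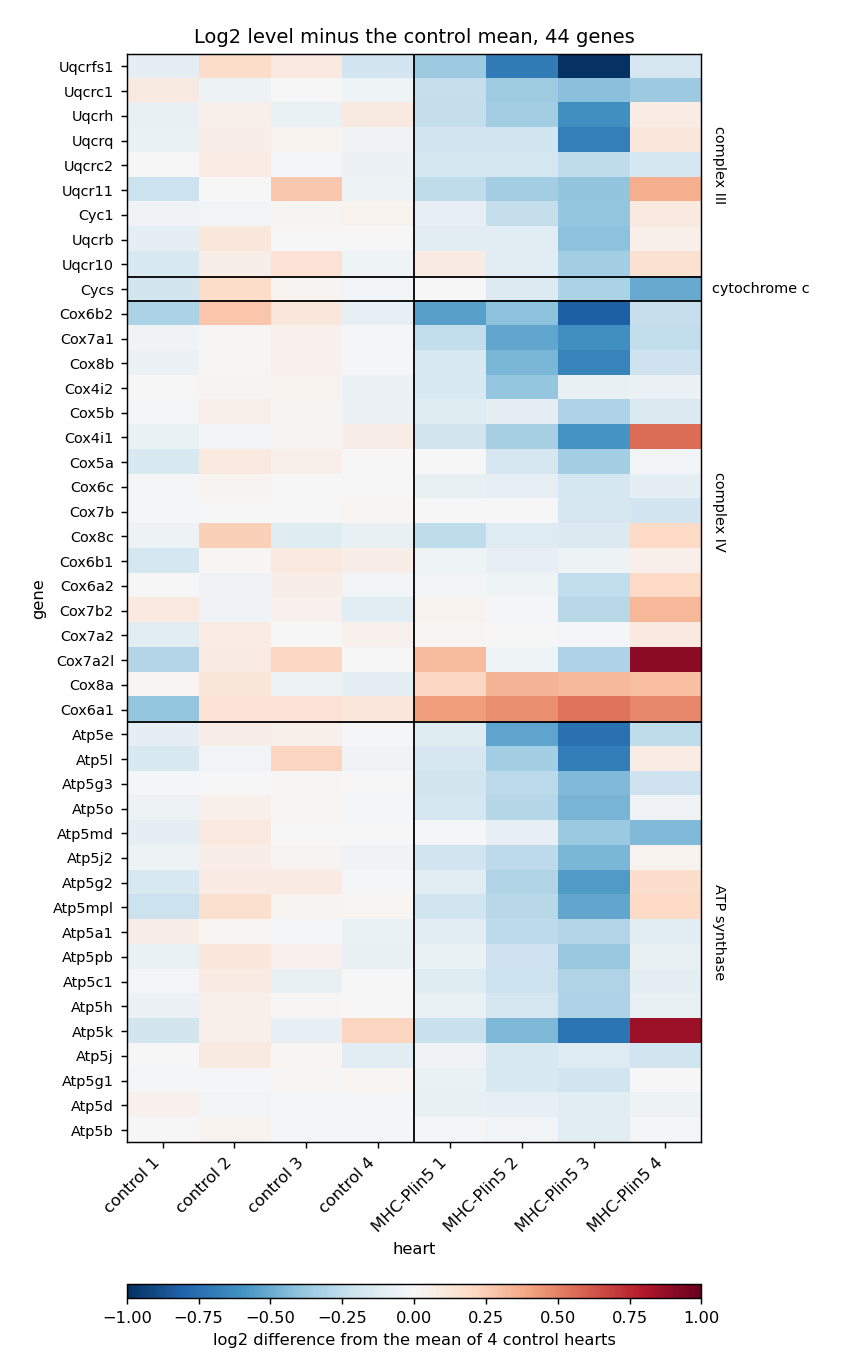
Each cell is the log2 level of a gene (row) in a heart (column) minus the mean of the 4 control hearts, with blue below and red above that mean. MHC-Plin5 3 is the bluest column, Cox6a1 and Cox8a are red in all 4 MHC-Plin5 hearts, and Cox7a2l, Atp5k and Cox4i1 are red in MHC-Plin5 4.

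The balance between muscle and general forms of complex IV separated the groups. In 3 subunits the muscle form stood lower relative to the general form in every MHC-Plin5 heart than in any control heart. How often pairs of other genes separate the groups was not computed, so this is not shown to be particular to these paralogs. Among single genes with a mean of at least 10, 28.6% had no overlap in either direction. The size was 1.59-fold for Cox8b against Cox8a, 1.42-fold for Cox6a2 against Cox6a1 and 1.35-fold for Cox7a1 against Cox7a2. Signal compression can act unequally on paralogs of unlike brightness, so these sizes do not rank the pairs. In mean level, the general form was higher for Cox6a, the muscle form was lower for Cox7a, and both held for Cox8. limma, adjusted over all 19938 genes, called none of these single genes as fitted. The balance within each heart passed the exact test, adjusted over only 5 pairs, so these outcomes do not rank the evidence. Unadjusted, the limma p was 0.0029 for Cox7a1, 0.0032 for Cox6a1, 0.0081 for Cox8a and 0.0104 for Cox8b. For Cox6a2 and Cox7a2 it was 0.81 and 0.77. The unadjusted exact permutation p was 0.0286 for each of these pairs. Under alternatives at the same threshold, limma called Cox7a1 after quantile normalization, among genes whose mean reached 7, with an intensity trend (with or without robust variances) and without MHC-Plin5 4. It called Cox6a1 with array medians centred, among genes whose mean reached 7 and with robust variances. With array weights it called Cox6a1, Cox7a1, Cox8a and Cox8b.

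Cox8b, the muscle form of the subunit, was at 13.14, 13.22, 13.24 and 13.19 in the controls, in order of heart number, and at 13.05, 12.74, 12.53 and 12.99 in the MHC-Plin5 hearts. All MHC-Plin5 hearts lay below all controls (log2 difference -0.37, SE 0.12, limma adjusted p = 0.135). Its general counterpart Cox8a was at 11.86, 11.95, 11.79 and 11.75 in controls and at 12.04, 12.17, 12.16 and 12.14 in MHC-Plin5 hearts. Here all MHC-Plin5 hearts lay above all controls (0.29, SE 0.09, adjusted p = 0.12). Within a heart, Cox8b minus Cox8a was 1.36 ± 0.10 in controls and 0.70 ± 0.28 with MHC-Plin5 (SD, n = 4), a change of -0.66 (SE 0.15). Only the change is read, since levels of different probe sets are not comparable. An exact permutation test over hearts, two-sided, gave p = 0.0286, which is the least possible with 4 hearts a group, and 0.0357 adjusted over the 5 pairs of paralogs compared. The adjusted value depends in part on the pair of Cox6b2 and Cox6b1. That pair had the same exact permutation p, and no result is drawn from it below. The MHC-Plin5 hearts were spread, at 1.00, 0.57, 0.37 and 0.85 for hearts 1 to 4. Without any 1 control the change stayed between -0.70 and -0.63, with an exact permutation p of 0.0571.

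Cox7a1, the muscle form of a subunit that also bears on how complex IV pairs up, was at 13.18, 13.22, 13.26 and 13.19 in controls and at 12.96, 12.69, 12.60 and 12.96 in MHC-Plin5 hearts. The groups did not overlap (-0.41, SE 0.11, adjusted p = 0.068), and the MHC-Plin5 hearts 2 and 3 were lowest. The general Cox7a2 was at 11.49, 11.67, 11.59 and 11.63 against 11.61, 11.60, 11.58 and 11.70 (0.03, SE 0.09, adjusted p = 0.924), with the groups mixed. The interval of that difference ran from -0.17 to 0.22, and its sign turned after a further quantile normalization. The within-heart difference Cox7a1 minus Cox7a2 went from 1.62 ± 0.07 in controls to 1.18 ± 0.15 with MHC-Plin5 (SD, n = 4), a change of -0.43 (SE 0.08). Its exact permutation p was 0.0286 (0.0357 adjusted over 5 pairs), and it was 0.0286 without any single heart.

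Cox6a2, the muscle form of a regulatory subunit, hardly differed in mean, at 13.30, 13.26, 13.36 and 13.27 in controls and 13.27, 13.26, 13.06 and 13.50 in MHC-Plin5 hearts (-0.03, SE 0.11, adjusted p = 0.937). Its interval ran from -0.26 to 0.21, and its sign turned without MHC-Plin5 3 or with array medians centred. The general Cox6a1 was at 9.56, 10.09, 10.09 and 10.06 in controls and 10.37, 10.42, 10.49 and 10.43 in MHC-Plin5 hearts. All MHC-Plin5 hearts lay above all controls (0.48, SE 0.13, adjusted p = 0.0712), which is 1.39-fold, and control 1 was far below the other controls. Within a heart, Cox6a2 minus Cox6a1 was 3.35 ± 0.26 in controls and 2.84 ± 0.21 with MHC-Plin5 (SD, n = 4), a change of -0.50 (SE 0.17, exact permutation p = 0.0286, adjusted over 5 pairs 0.0357). Without control 1 it was -0.37 and without MHC-Plin5 3 it was -0.41, each with an exact permutation p of 0.0571.

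**Figure D2:**
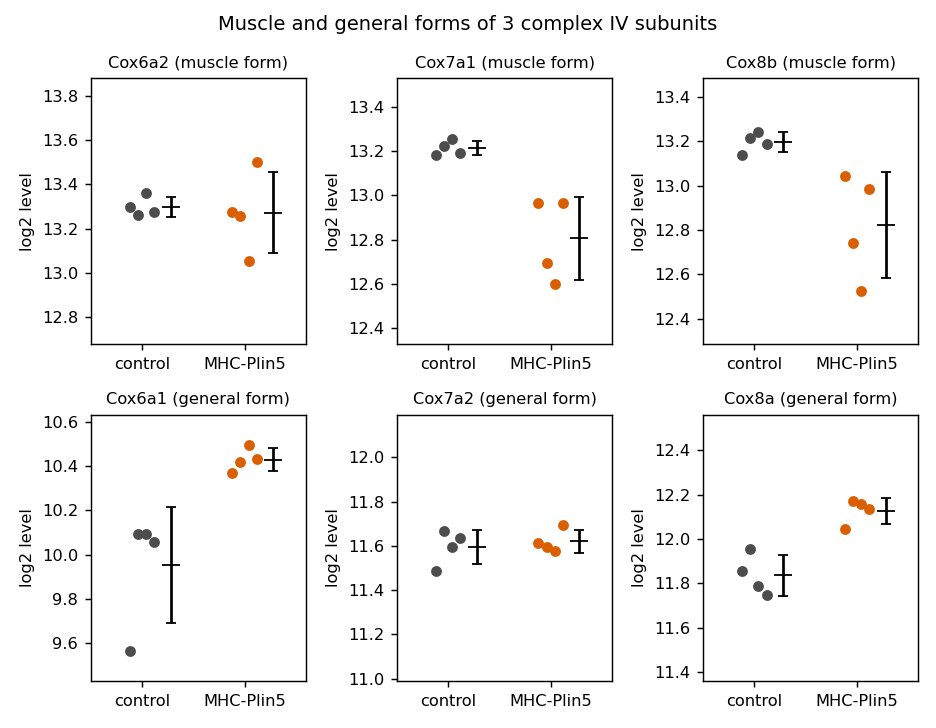
Points are log2 levels in single hearts, with the mean and SD (n = 4) beside them, for the muscle form (top) and the general form (bottom) of 3 subunits. Every panel spans the same range of log2 units. The groups separate downward in Cox7a1 and Cox8b and upward in Cox6a1 and Cox8a, and overlap in Cox6a2 and Cox7a2.

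The other pairs set forms of other tissues against the general form. Cox6b2, known from the testis, had low signal at 5.81, 6.40, 6.24 and 6.04 in controls and 5.58, 5.71, 5.31 and 5.89 in MHC-Plin5 hearts (-0.50, SE 0.15, adjusted p = 0.115), near or below the array medians. The general Cox6b1 was at 12.57, 12.76, 12.84 and 12.81 against 12.70, 12.66, 12.69 and 12.80 (-0.03, SE 0.10), a sign that turned with array medians centred. Their balance differed by -0.47 (SE 0.14) and by -0.38 without control 2. Detection calls of the arrays were not used here, so Cox6b2 is not shown to be above background, and this pair is given as values with no result drawn from it. Cox4i2, a form known from the lung and from low oxygen, was at 8.44, 8.47, 8.48 and 8.38 against 8.29, 8.05, 8.37 and 8.38 (-0.17, SE 0.10), and had -0.10 without MHC-Plin5 2. The general Cox4i1 was at 12.14, 12.18, 12.23 and 12.28 against 12.03, 11.88, 11.61 and 12.77 (-0.14, SE 0.20), with MHC-Plin5 4 above every control and the rest below. Leaving out MHC-Plin5 4 gave -0.37, and leaving out MHC-Plin5 3 gave 0.015. Their balance differed by -0.03 (SE 0.24, exact permutation p = 0.8), and by 0.17 without MHC-Plin5 4.

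**Figure D3:**
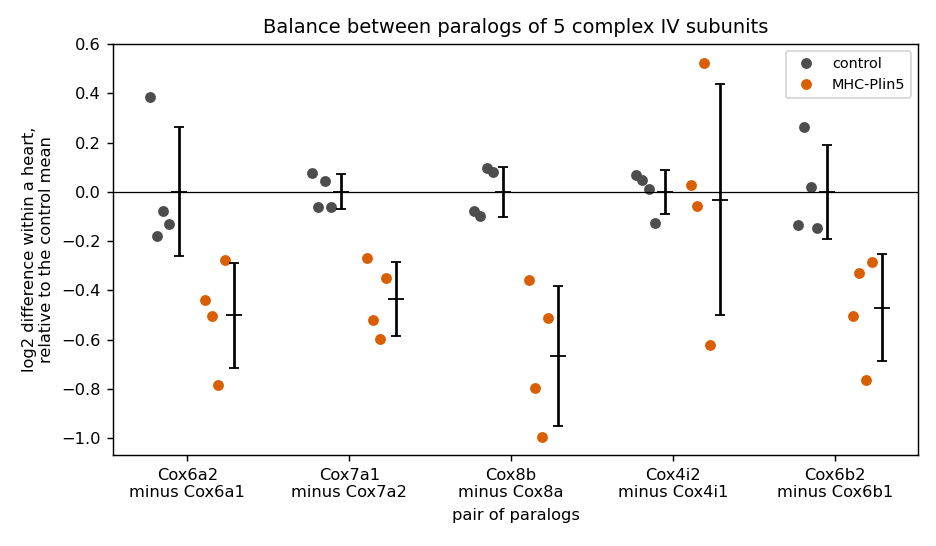
For each pair of paralogs, points are the log2 difference between the paralogs within a heart, minus the control mean of that difference, with the mean and SD (n = 4) of each group. The MHC-Plin5 hearts lie below all controls in every pair except Cox4i2 minus Cox4i1, where MHC-Plin5 3 is high and MHC-Plin5 4 low; Cox6b2 is not shown to be above background.

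Some of the other cells of a heart also make muscle or general forms of complex IV subunits. Brown adipocytes make Cox7a1 and Cox8b, and most tissues other than heart and skeletal muscle rely on the general forms. The mean of 4 brown adipocyte markers was 7.47 to 7.74 in controls and 7.08 to 7.43 in MHC-Plin5 hearts, and the groups did not overlap. The defining marker Ucp1 was at 5.31 to 5.59 in controls and 5.08 to 5.28 in MHC-Plin5 hearts, below the array medians. The coactivator Ppargc1a, which cardiomyocytes make too, had the largest difference of the 4 (-0.61, SE 0.17, limma adjusted p = 0.0855). The groups overlapped in Cidea (-0.25, SE 0.14, limma adjusted p = 0.406) and in Elovl3 (-0.09, SE 0.15, limma adjusted p = 0.839). Ucp1 and Ppargc1a had no overlap, as had 11.2% of all genes. The mean without Ppargc1a was not computed. White adipocyte markers ran from 5.45 to 7.18 in controls, highest in control 4, and from 5.43 to 5.96 in MHC-Plin5 hearts. Fibroblast markers ran from 9.09 to 9.53 and from 9.20 to 9.82, and macrophage markers from 7.70 to 8.10 and from 7.87 to 8.54. Atrial markers ran from 7.25 to 11.33 and from 8.04 to 11.63. All 6 fibroblast, all 6 macrophage and all 5 atrial markers had higher means in MHC-Plin5 hearts, and the groups overlapped in each gene. Endothelial markers lay at 10.24 to 10.35 and 10.09 to 10.32, and smooth muscle markers at 9.34 to 9.62 and 9.31 to 9.91. Means were higher in MHC-Plin5 hearts for 2 of 6 endothelial, 4 of 6 smooth muscle, 1 of 5 white adipocyte and 1 of 8 cardiomyocyte markers. In these lists 0 genes were called, and their part in the balance of the paralogs was not tested.

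Upstream sequence is shown for the paralogs whose levels separated the groups, with Cox7a2 for comparison. Each is the 250 bases before the start of the gene in RefSeq, build GRCm38.p6, written 5′ to 3′ on the gene's strand. Capitals mark the motifs found. Cox6a1 lies at chr5:115348959-115349208 (minus strand), Cox7a1 at chr7:30183921-30184170 (plus strand) and Cox7a2 at chr9:79759854-79760103 (minus strand). Cox8a lies at chr19:7217617-7217866 (minus strand) and Cox8b at chr7:140900447-140900696 (minus strand).
Cox8b: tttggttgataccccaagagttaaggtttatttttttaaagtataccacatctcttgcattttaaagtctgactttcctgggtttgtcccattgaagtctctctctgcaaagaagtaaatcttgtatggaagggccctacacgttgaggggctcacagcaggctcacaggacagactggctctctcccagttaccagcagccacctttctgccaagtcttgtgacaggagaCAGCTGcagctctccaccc
Cox8a: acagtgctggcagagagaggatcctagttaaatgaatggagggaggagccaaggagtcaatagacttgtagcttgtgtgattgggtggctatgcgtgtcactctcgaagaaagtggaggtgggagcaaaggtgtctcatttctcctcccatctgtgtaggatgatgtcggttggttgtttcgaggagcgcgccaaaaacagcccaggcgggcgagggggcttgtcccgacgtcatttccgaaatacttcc
Cox7a1: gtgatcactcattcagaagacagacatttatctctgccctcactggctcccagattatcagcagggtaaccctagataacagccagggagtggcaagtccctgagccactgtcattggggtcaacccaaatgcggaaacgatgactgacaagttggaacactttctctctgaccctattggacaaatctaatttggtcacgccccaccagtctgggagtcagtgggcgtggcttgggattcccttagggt
Cox7a2: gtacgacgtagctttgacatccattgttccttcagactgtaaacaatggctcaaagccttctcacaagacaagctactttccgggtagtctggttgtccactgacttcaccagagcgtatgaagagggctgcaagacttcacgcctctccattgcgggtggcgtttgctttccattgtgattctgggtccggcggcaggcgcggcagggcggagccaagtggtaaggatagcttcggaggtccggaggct
Cox6a1: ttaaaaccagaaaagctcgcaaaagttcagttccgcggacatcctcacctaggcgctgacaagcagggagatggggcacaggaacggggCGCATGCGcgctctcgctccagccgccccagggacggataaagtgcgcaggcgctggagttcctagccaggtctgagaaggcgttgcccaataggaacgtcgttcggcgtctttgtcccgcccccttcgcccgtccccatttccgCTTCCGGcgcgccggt

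Both strands were searched for 5 short motifs. CGCATGCG is the core bound by nuclear respiratory factor NRF-1. CCGGAAG is the core bound by ETS factors, and AAGGTCA is a half-site of estrogen-related receptors. CAGCTG is a form of the E-box, and muscle regulators are among the factors that bind it. The TATA box was searched as TATAAA. Cox6a1 held CGCATGCG, whose first base is 161 bases before the start, and CCGGAAG on the other strand, from 16 bases before it. Cox8b held CAGCTG from 19 bases before the start. Cox7a1, Cox7a2 and Cox8a held none of these letters. RefSeq windows were found for 33 of the 44 genes, 36 windows in all. CGCATGCG stood in 16.7% of them (Atp5g2, Atp5j, Atp5k, Atp5l, Cox6a1 and Cycs) and in 1.55% of all 32851 windows. CCGGAAG stood in 22.2% (8 genes, Cox6a1 and Uqcrh among them) and in 6.91% of all windows. AAGGTCA stood in 5.56% (Atp5g3 and Atp5l) and in 4.08% of all windows. The TATA box stood in 8.33% (Atp5l, Atp5md and Cox7b2) and in 12.4% of all windows, and CAGCTG in 5.56% (Atp5b and Cox8b) and 13.0%. These matches are letters in a window and no measure of binding.

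In complex III the mean was lower in MHC-Plin5 hearts for all 9 genes, with a median of -0.20. The catalytic Rieske iron-sulfur protein Uqcrfs1 differed most, at 10.47, 10.74, 10.66 and 10.37 in controls and 10.20, 9.86, 9.57 and 10.39 in MHC-Plin5 hearts. MHC-Plin5 4 lay among the controls and the others lay below them (-0.55, SE 0.17, 1.47-fold lower, adjusted p = 0.112). The core protein Uqcrc1 was at 13.03, 12.89, 12.94 and 12.89 against 12.71, 12.58, 12.52 and 12.58. Its groups did not overlap, and it had the smallest p of the 44 (-0.34, SE 0.09, adjusted p = 0.0679). Under alternatives it was called after quantile normalization, among genes whose mean reached 7, with an intensity trend and with array weights; Uqcrfs1 was also called with array weights. The other core protein Uqcrc2 also had no overlap (-0.20, SE 0.09), at 13.10 to 13.23 against 12.90 to 12.98. Cyc1, the heme protein that hands electrons to cytochrome c, was at 12.50, 12.51, 12.56 and 12.57 against 12.45, 12.29, 12.14 and 12.63 (-0.15, SE 0.11), and the groups overlapped. Leaving out MHC-Plin5 3 gave -0.07 for it, and leaving out MHC-Plin5 4 gave -0.24. The small subunits Uqcrh, Uqcrq, Uqcr11, Uqcrb and Uqcr10 had -0.28, -0.24, -0.16, -0.14 and -0.05. The complex III median was -0.09 without MHC-Plin5 3 and -0.33 without MHC-Plin5 4.

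Cytochrome c itself, from the somatic gene Cycs, was at 12.97, 13.34, 13.18 and 13.13 in controls and 13.15, 13.02, 12.84 and 12.65 in MHC-Plin5 hearts. The groups overlapped, and MHC-Plin5 4 was the lowest heart (-0.24, SE 0.13, adjusted p = 0.385). Without MHC-Plin5 4 the difference was -0.15.

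The nuclear subunits around the catalytic core, Cox5b, Cox5a, Cox6c and Cox7b, had differences of -0.17, -0.13, -0.11 and -0.09. Cox5b, which binds zinc, lay at 12.79 to 12.91 in controls and 12.55 to 12.76 in MHC-Plin5 hearts with no overlap. Cox6c also had no overlap, at 13.91 to 13.96 against 13.75 to 13.86. In the other array row of each, the groups overlapped. Cox7b overlapped in the row kept and had no overlap in its other row (-0.19). Cox7a2l is a relative of Cox7a described as a factor in supercomplexes of complexes III and IV, a function not measured here. It was spread from 8.70 to 9.91 in MHC-Plin5 hearts, against 8.72 to 9.22 in controls (0.21, SE 0.22). Its highest value was in MHC-Plin5 4. Forms known from the testis, Cox7b2 and Cox8c, had low levels of 3.68 to 4.29 and 5.98 to 6.47 over the 8 hearts and differences of 0.02 and -0.08. Over the 17 genes the median was -0.09, with 12 under 0 and 5 above. It was -0.06 without MHC-Plin5 3 and -0.05 with array medians centred. The symbol of Cox7c stands in 3 rows that carry another symbol too, so it is not analysed here.

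In ATP synthase the mean was lower for all 17 genes, with a median of -0.19. Atp5e, the epsilon subunit of the central stalk, differed most, at 10.13, 10.29, 10.28 and 10.21 in controls and 10.11, 9.70, 9.48 and 9.97 in MHC-Plin5 hearts. The groups just did not overlap (-0.41, SE 0.13, 1.33-fold lower, adjusted p = 0.137), and it was called with array weights. The remaining stalk subunits Atp5c1 (gamma) and Atp5d (delta) had -0.18 and -0.08, each with no overlap. In the catalytic head, Atp5a1 (alpha) had -0.19 with no overlap, at 13.29 to 13.42 against 13.06 to 13.25, and Atp5b (beta) -0.04 at 13.73 to 13.78 against 13.65 to 13.74. The peripheral stalk subunits Atp5o, Atp5pb, Atp5h and Atp5j had -0.24, -0.18, -0.15 and -0.13. Of these only Atp5h had no overlap in the array row kept, and its other rows overlapped. Among membrane subunits Atp5l had -0.28, Atp5md -0.23, Atp5j2 -0.22, Atp5mpl -0.20 and Atp5k -0.14. Atp5l overlapped in the row kept and had no overlap in another of its rows (-0.32). Atp5k was the most spread, from 9.37 in MHC-Plin5 3 to 10.96 in MHC-Plin5 4, against 9.91 to 10.31 in controls. The ATP synthase median was -0.13 without MHC-Plin5 3.

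The proton-carrying c ring is made from 3 genes whose mature protein is the same, Atp5g1, Atp5g2 and Atp5g3. Their mean differences ran from -0.27 to -0.11, and the 95% intervals of these differences overlapped. Atp5g3 was at 13.35, 13.37, 13.38 and 13.37 in controls and 13.18, 13.10, 12.92 and 13.16 in MHC-Plin5 hearts. Its groups were well apart for so tight a control group (-0.27, SE 0.09, adjusted p = 0.15). Atp5g2 was at 12.18, 12.42, 12.42 and 12.33 against 12.23, 12.04, 11.77 and 12.51 (-0.20, SE 0.15), with MHC-Plin5 4 above every control. Leaving out MHC-Plin5 3 gave -0.08, and leaving out MHC-Plin5 4 gave -0.33. Atp5g1 was at 13.81, 13.81, 13.84 and 13.85 against 13.76, 13.67, 13.63 and 13.82 (-0.11, SE 0.09), with MHC-Plin5 4 inside the control range. Differences between these 3 genes were not tested.

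**Figure D4:**
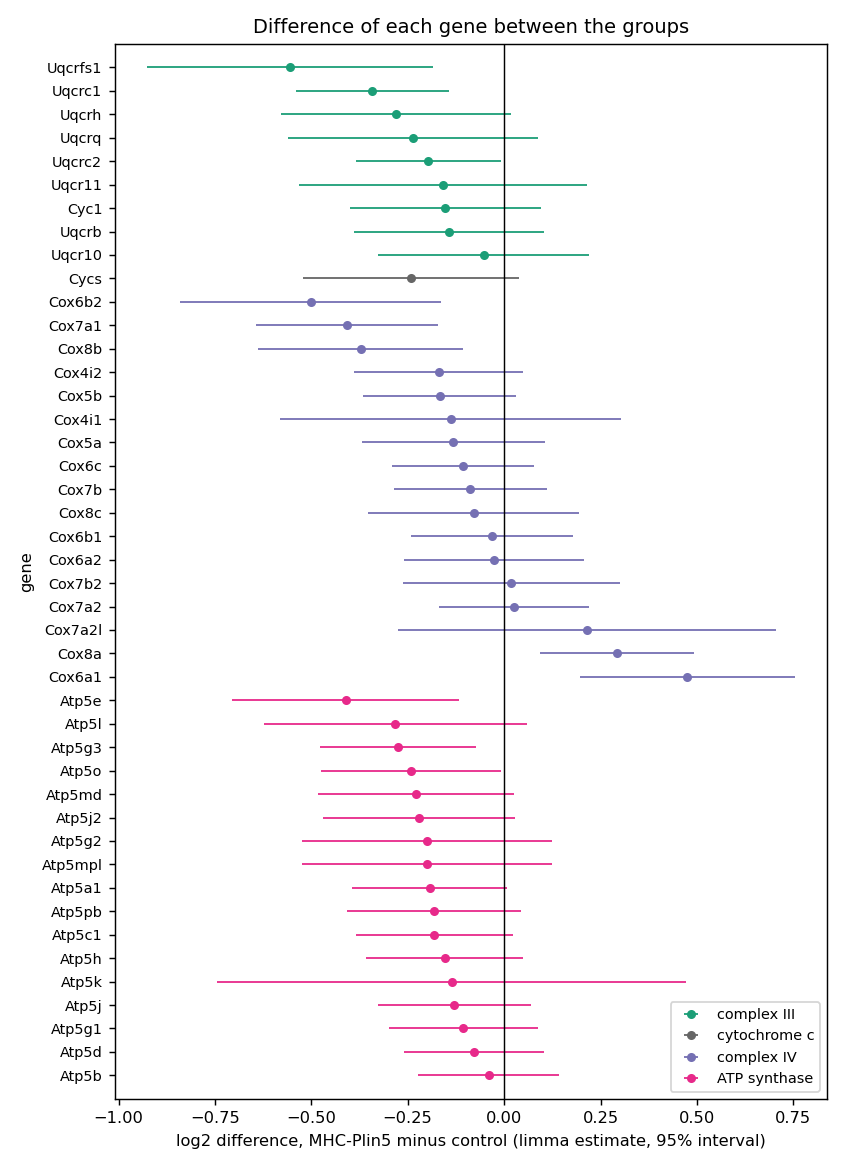
Points are limma estimates of the log2 difference (MHC-Plin5 minus control) for each of the 44 genes, by complex, and bars are 95% intervals without adjustment for the number of genes. All complex III, cytochrome c and ATP synthase points lie left of 0, while complex IV spans from -0.50 for Cox6b2 to 0.48 for Cox6a1.

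Of the other genes of these complexes, 34 were measured: assembly factors, the inhibitor of ATP synthase and subunits with other symbols. Among them 1 was called higher and 0 lower, a share near the 3.25% called over all genes. Cox19, a copper-handling protein needed to build complex IV, was at 8.01, 8.25, 8.36 and 8.08 in controls and 9.04, 9.45, 9.41 and 8.79 in MHC-Plin5 hearts. It was 2.00-fold higher with no overlap (log2 difference 1.00, SE 0.15, limma adjusted p = 0.00605), and the adjusted p ran from 0.00155 to 0.0287 without any single heart. Of 22 genes that assemble complex IV or supply its copper and heme, 6 had a difference above 0 and 16 under 0, with a median of -0.07. Next to Cox19, the smallest p values were those of Coa7, which acts in the intermembrane space (-0.46, SE 0.13, adjusted p = 0.101), and Lrpprc, which stabilises mitochondrial mRNA (-0.40, SE 0.13, adjusted p = 0.126). Without MHC-Plin5 1, Lrpprc (-0.51) and the complex III factor Uqcc1 (-0.66) were called lower, and without MHC-Plin5 4, Cox18 (-0.55), which inserts a complex IV subunit into the membrane.

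For complex III, 0 of 6 assembly factors were called, with a median of -0.15. Uqcc1 had -0.50 with no overlap (SE 0.17, adjusted p = 0.142), Ttc19 -0.43 (SE 0.15) and Uqcc2 -0.18 (SE 0.12). For ATP synthase 0 of 4 were called. The assembly factor Atpaf2 was at 8.79 to 8.93 in controls and 8.51 to 8.74 in MHC-Plin5 hearts (-0.24, SE 0.09, adjusted p = 0.218). Atpif1, the protein that blocks ATP hydrolysis by ATP synthase, was at 12.82 to 12.93 against 13.00 to 13.06, with all MHC-Plin5 hearts above all controls (0.18, SE 0.08, adjusted p = 0.316). Tmem70 had -0.18 (SE 0.16). Ndufa4, a complex IV subunit named after complex I, had -0.28 (SE 0.13, adjusted p = 0.304). COX2, the mitochondrially encoded subunit II of complex IV, had -0.05 (SE 0.10, adjusted p = 0.844), at 13.51 to 13.76 against 13.44 to 13.64. The other mitochondrially encoded subunits are not analysed here.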

How the data were processed

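Expression was measured in 8 mouse hearts, 4 per group, each taken as a separate animal since the series text counts 4 mice per group. Deposited values are on a log2 scale; per the submitters' processing notes, the authors used RMA and Expression Console of Affymetrix. The version is not given in the sources used here. RMA quantile normalization and the upper end of the signal range can compress differences of bright genes. The number of arrays limits precision. Scanner files were not used here, so no batch was tested.

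GEO's platform annotation gave 1 symbol to 21789 of 35556 rows. The row with the highest mean was kept per gene, which left 19938 genes, of which 44 met the symbol rule. Of these, 13 had several rows, whose differences agreed in sign and lay within 0.13 of each other. Whether the groups overlapped was not the same in all rows for Cox5b, Cox6c, Cox7b, Atp5h and Atp5l. All 44 matched RefSeq gene IDs (GRCm38.p6). No filter on dim genes was applied.

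The two-sided test per gene was limma's (3.58.1, R 4.3.3; lmFit, eBayes), whose model held the group alone, with Benjamini-Hochberg adjustment over all genes and a threshold of 0.05. The step was tested on simulated data. Pairs of paralogs were compared by the log2 difference within each heart, with an exact permutation test over the 8 hearts. Levels of different probe sets are not comparable, so only the change of this difference between hearts was used. Compression can act unequally on paralogs of unlike brightness, so the sizes are not comparable between pairs. Genes and lists were chosen with earlier results of these data known. The genes shown in every heart are the paralogs, the c-subunit genes, Cyc1, Cycs, genes called with or without any single heart and the 2 smallest p per complex. The background of genes with a mean of at least 10 was added after the data were seen. Heart numbers were not taken to pair hearts across groups. Plots used Python 3.11.15 with matplotlib 3.10.9.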

Additional observations from a re-analysis of the deposited data

Results flagged for a closer look

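Of 100 groups of 4 hearts examined, over the 44 genes, Plin5 and the 5 paralog pairs, 3 had a heart far from the others, and chance flags about 1 in 20. Cox6a1 in control 1 was 9.56, where the other controls lay at 10.06 to 10.09. Uqcrc2 in MHC-Plin5 3 was 12.90, where the others all rounded to 12.98. Atp5b in MHC-Plin5 3 was 13.65, against 13.73 to 13.74 in the others.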

How the results depend on the processing

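The number of called genes among the 44 was 0 to 2 when single hearts were left out. It was 2 after quantile normalization or with an intensity trend, 1 with array medians centred, 3 among genes whose mean reached 7, with robust variances or at a threshold of 0.1, and 7 with array weights (5 lower). Over all genes 648 were called, with 233 to 1174 when 1 heart was left out, 1625 with array weights and 1130 at a threshold of 0.1. Of the 34 other pathway genes 1 was called, 1 to 3 without single hearts, 2 without control 2 and MHC-Plin5 4 together and 3 with array weights. The medians of all complexes kept their sign under every alternative run.

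The heart number correlated 0.19, 0.03, -0.11 and -0.04 between same-numbered hearts. With it as a replicate block, 0 of the 44 genes were called, and for the pairs the smallest exact p possible, 0.125, cannot pass: it was 0.125 for Cox8b (-0.66), Cox6a2 (-0.50), Cox6b2 (-0.47) and Cox7a1 (-0.43). Without control 2 and MHC-Plin5 4 together the smallest possible is 0.1, found for the same pairs in that order with -0.75, -0.64, -0.44 and -0.48. With single hearts left out these ranged from -0.77 to -0.56, -0.58 to -0.37, -0.53 to -0.37 and -0.49 to -0.38. The pair Cox4i2 and Cox4i1 ranged from -0.22 to 0.17 and was 0.18 without both hearts.

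Signs near 0 turned without MHC-Plin5 3 for Cox4i1 (0.015) and Cox6a2 (0.046), with array medians centred for Cox6a2 (0.015) and Cox6b1 (0.010), without control 3 for Cox6b1 (0.00089), and for Cox7a2 without control 1 (-0.010) and after quantile normalization (-0.030). With single hearts left out, Cox4i1 ranged from -0.37 to 0.015, Cox6a2 from -0.10 to 0.046, Cox6b1 from -0.090 to 0.00089 and Cox7a2 from -0.010 to 0.050. The cause was not tested.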
